A study of Rattus norvegicus with 21 samples.

Results

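Across rat PC12 cells given an herbal extract, 270 of 32883 Ensembl rat gene IDs set the vehicle libraries apart from every treated library. They were chosen by their CPM, the expected read count of a gene scaled by the total of its library. A mean of 1 CPM or more over 21 libraries was required, which left 12266 genes, and a gene was kept when its 3 vehicle values all lay above, or all lay below, its 18 treated values. Genes whose 9 ethanol extract values also separated from the other 12 libraries were then removed. The 270 members comprised 78 genes that were higher in vehicle and 192 that were lower. Vehicle against treatment was the contrast that chose them, so it is described below with values and without a test.

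PC12 is a line from a rat adrenal pheochromocytoma, a tumour of the catecholamine-producing chromaffin cells. It is much used as a model of neuronal cells because nerve growth factor makes the cells stop dividing and extend neurites. Jakyakgamcho-tang (JGT) is a traditional decoction of peony root, known for the monoterpene glycoside paeoniflorin, and licorice root, known for the triterpene saponin glycyrrhizin. Water and ethanol draw different mixtures of compounds from such roots.

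All 7 groups were PC12 cells with 3 libraries each. The control is called vehicle in the labels and is also given there as an untreated sample. The other 6 groups received the water or the ethanol extract of JGT at a low (4 µg/mL), medium (20 µg/mL) or high (100 µg/mL) dose. The sources used here do not give the time of exposure or whether replicates came from separate cultures, so p-values reflect the spread among these samples and that spread may be technical. In such bulk RNA, a change in the level per cell and a change in the mix of cells cannot be told apart. Whether the solvent of each extract was matched by the vehicle was not given either, so the extract and its solvent cannot be told apart.

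The tables list IDs only, and 0 of the 32883 IDs matched an entry among 47357 RefSeq rat genes of the GRCr8 assembly. Functions, pathway lists, PC12 markers and sequences of the members were therefore not analysed here. The text names 2 IDs per direction, those with the largest ratio of mean vehicle CPM to mean treated CPM, and describes the other members by their level or rank.

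Depth, as the sum of expected counts, ranged from 19918513 to 23781470 for vehicle, from 18398186 to 28420922 for the water extract and from 8344416 to 23528245 for the ethanol extract. A set of 3 ethanol libraries stood apart by shallow depth and short fragments: low dose replicate 1 and medium dose replicates 2 and 3. Their totals were 8344416 to 14918515 and their fragment lengths 178.7 to 202.5 bases. Fragment length averaged 226.2 ± 6.36 bases in vehicle (SD, n = 3), 226.4 ± 6.65 with water extract (n = 9) and 209.2 ± 16.1 with ethanol extract (n = 9). The vehicle values of 221.7 to 233.5 bases lay inside the treated range of 178.7 to 240.8 bases, and the vehicle totals lay inside the treated range as well. Most results that involve the ethanol extract are given with 21 libraries and, without those 3, with 18. In the 18, replicate 1 alone stands for the ethanol medium dose.

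Before the removal of ethanol-separating genes, 274 of the 12266 genes separated vehicle from all treated libraries, a background of 2.23%. Vehicle lay above the treated libraries in 79 genes (0.644%) and below them in 195 (1.59%). Ethanol separated from the other 12 libraries in 69 genes (0.563%), and 4 of these were among the 274. Removing them took 1 gene from the higher side and 3 from the lower side. The lower side was thus the larger one at this scaling, with 71.1% of the members. This split depended on scaling: 144 of 278 genes (51.8%) were lower in vehicle with totals scaled by TMM and 147 of 280 (52.5%) with DESeq2 size factors. With the deposited TPM, a level per gene length, 147 of 168 (87.5%) were lower. It was 304 of 546 (55.7%) when the 3 ethanol libraries were left out. In a single library the TMM and DESeq2 scalings moved the median of all genes by more than 0.1 on the log2 scale: by -0.12 and -0.11 in ethanol medium dose replicate 2.

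The separation was narrow for most members. The ratio of mean vehicle to mean treated CPM had a median of 1.25-fold in the set higher in vehicle and did not exceed 1.61-fold. Of these 78 genes, 39 differed by less than 1.25-fold, 33 by 1.25 to 1.5-fold, 6 by 1.5 to 2-fold and 0 by 2-fold or more. In the set lower in vehicle the median of the log2 ratio was -0.37. There 71 genes differed by less than 1.25-fold, 80 by 1.25 to 1.5-fold, 35 by 1.5 to 2-fold and 6 by 2-fold or more, and these 6 include an ID at or near 0 counts in vehicle that is described below. Of all 12266 genes, 92.5% differed by less than 1.25-fold and 0.375% by 2-fold or more.

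The gap between the outermost vehicle library and the nearest treated library was smaller still. Its median was 0.0292 on the log2 scale in the higher set and 0.0459 in the lower set. The member with the smallest gap on the higher side had a lowest vehicle value of 368.25 CPM and a highest treated value of 368.20 CPM. Just outside the rule, a gene had 27.617 CPM as its lowest vehicle value and 27.625 CPM as its highest treated value. On the lower side, the member nearest the boundary had 86.196 CPM as its highest vehicle value against 86.204 CPM as its lowest treated value, and the nearest gene outside had 229.26 against 229.22 CPM. The member with the lowest level averaged 1.056 CPM, and the separating gene just under the level filter averaged 0.946 CPM.

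**Figure D1:**
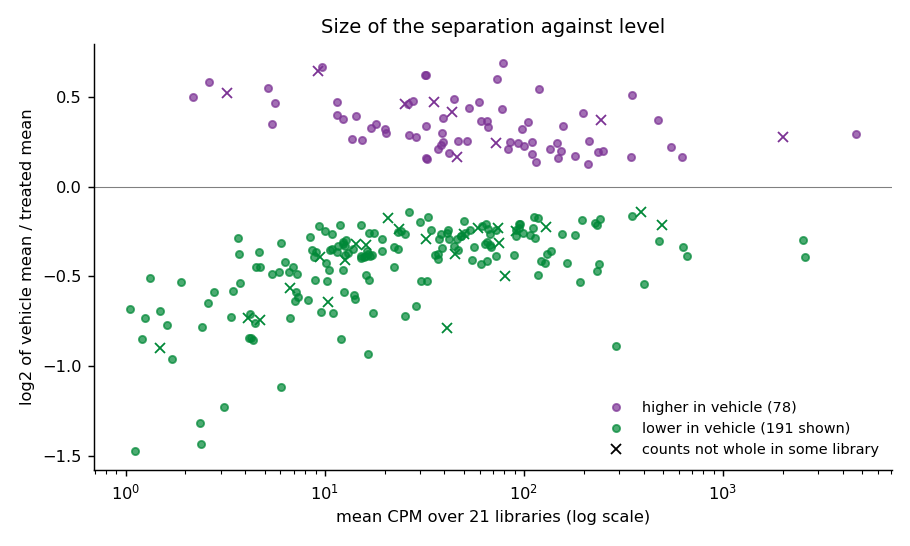
Log2 ratio of mean vehicle CPM to mean treated CPM (vertical axis) against the mean CPM over 21 libraries (horizontal log axis), 1 point per member, with crosses for members whose counts were not whole in some library. The 78 members higher in vehicle do not exceed a log2 ratio of 0.69, and ratios below -1 are found among members under 10 CPM. ENSRNOG00000060047.1, at or near 0 counts in vehicle, is not drawn.

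Members higher in vehicle were on the whole the more abundant. Their median level was 49.3 CPM, against 18.5 CPM in the lower set and 29.1 CPM over all 12266 genes. Per length, the medians were 27.6, 14.5 and 18.9 TPM. Median gene length was 2798 bases in the higher set, 2286 in the lower set and 2215 over all genes. One annotated transcript was listed for 46 of the 78 (59.0%), 130 of the 192 (67.7%) and 70.3% of all genes. Counts that were not whole, which arise where reads fit more than 1 gene, occurred in 33 members (12.2%) and in 15.8% of all genes. Such members depend on how reads were divided between genes.

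Together the 78 genes took 1.65 ± 0.0606% of a vehicle library's counts (SD, n = 3), 1.43 ± 0.0544% with water extract (n = 9) and 1.27 ± 0.0712% with ethanol extract (n = 9). The 192 genes took 1.34 ± 0.0275%, 1.58 ± 0.0615% and 1.79 ± 0.127%. On average the ethanol libraries lay further from vehicle than the water libraries in both sums, with some overlap between the extracts.

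ENSRNOG00000004221.5, a gene model of 3130 bases with whole counts in every library, had the largest ratio among the 78 genes. Its vehicle values were 110.6, 114.7 and 123.0 CPM, from 2450 to 2727 counts. The water libraries had 65.7, 77.1 and 85.5 CPM (4 µg/mL), 93.7, 92.1 and 95.9 CPM (20 µg/mL) and 77.9, 79.6 and 80.0 CPM (100 µg/mL). The ethanol libraries had 38.5, 61.5 and 81.4 CPM (4 µg/mL), 58.1, 81.4 and 61.7 CPM (20 µg/mL) and 48.8, 53.8 and 66.2 CPM (100 µg/mL). All 9 water values and all 9 ethanol values were under the lowest vehicle value, and the extracts overlapped each other. The means were 116 ± 6.30 CPM in vehicle, 83.1 ± 9.68 with water and 61.3 ± 14.0 with ethanol extract. The log2 ratio of vehicle to treated was 0.69.

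ENSRNOG00000062002.1, of 3200 bases and also with whole counts, ranked next in the set. It had 14.3, 12.4 and 16.1 CPM in vehicle, from 294 to 333 counts. The water libraries had 8.45, 9.82 and 10.4 CPM (4 µg/mL), 10.8, 11.4 and 12.3 CPM (20 µg/mL) and 8.81, 10.1 and 9.12 CPM (100 µg/mL). The ethanol libraries had 4.79, 8.96 and 10.5 CPM (4 µg/mL), 4.60, 10.5 and 8.45 CPM (20 µg/mL) and 6.62, 7.45 and 8.80 CPM (100 µg/mL). The lowest vehicle library and the highest water library nearly touched, with a gap of 0.0063 on the log2 scale. The ratio of means was 0.66 on that scale.

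ENSRNOG00000022603.4, of 2259 bases, had the largest ratio in the lower set that rests on counts in every library. Its vehicle values were 0.429, 0.294 and 0.602 CPM, which are 10, 7 and 12 counts. The water libraries had 1.01, 1.20 and 1.15 CPM (4 µg/mL), 1.02, 1.25 and 1.15 CPM (20 µg/mL) and 0.978, 1.15 and 1.27 CPM (100 µg/mL). The ethanol libraries had 2.04, 1.03 and 0.986 CPM (4 µg/mL), 1.33, 1.06 and 1.01 CPM (20 µg/mL) and 1.45, 1.65 and 1.32 CPM (100 µg/mL). Treated libraries held 12 to 34 counts, so counting error is large for each value. The log2 ratio of vehicle to treated was -1.47. Leaving out vehicle replicate 1, 2 or 3 gave -1.45, -1.25 and -1.76. The next member by ratio stood at -1.43 with all libraries, further from 0 than the value without vehicle replicate 2.

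ENSRNOG00000060047.1, of 3389 bases, met the rule in a different way. It had 0, 0.01 and 0 expected counts in vehicle. The treated libraries ranged from 0.03 to 1479.88 counts: 5 of the 18 held fewer than 3 and 9 held over 100. The water libraries had 2.74, 75.84 and 898.43 counts (4 µg/mL), 373.65, 199.07 and 1.92 counts (20 µg/mL) and 547.05, 548.32 and 1.53 counts (100 µg/mL). The ethanol libraries had 251.21, 0.03 and 761.23 counts (4 µg/mL), 8.32, 806.42 and 1479.88 counts (20 µg/mL) and 0.33, 33.57 and 32.03 counts (100 µg/mL). Replicates of the same dose therefore lay on both sides of 3 counts in 5 of the 6 treated groups. The counts were not whole in 19 libraries, so reads were divided between it and other IDs, and the gene was no longer a member once counts were rounded. No fold is given for it.

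**Figure D2:**
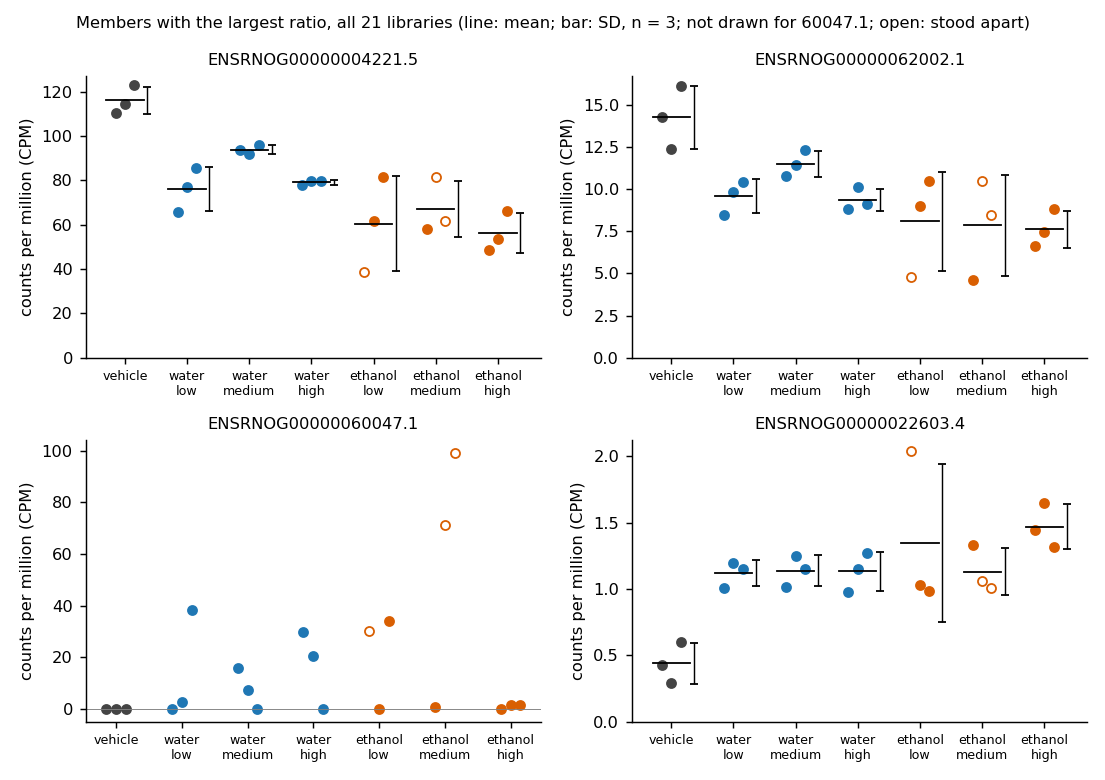
CPM of the 4 named IDs in each of the 21 libraries by group, with the mean and SD of 3 libraries except for ENSRNOG00000060047.1, and open symbols for the 3 ethanol libraries that stood apart. ENSRNOG00000004221.5 lies at 110.6 CPM or more in vehicle and at 95.9 or less in treated libraries, whereas ENSRNOG00000060047.1 spreads from near 0 to 99.2 CPM among treated libraries.

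The most abundant member higher in vehicle averaged 5558 ± 305 CPM in vehicle (n = 3), 4855 ± 231 with water extract (n = 9) and 4204 ± 320 with ethanol extract (n = 9). Its counterpart in the lower set averaged 2037 ± 98.1, 2433 ± 299 and 2915 ± 315 CPM. Among low-level genes, the member ranked sixth by ratio in the lower set averaged 3.01 ± 0.450 CPM in vehicle, 4.93 ± 1.39 with water and 8.14 ± 1.74 with ethanol extract. In all 3 genes the ethanol mean lay beyond the water mean, away from vehicle.

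With a vehicle library left out, 492 genes passed without replicate 1, 530 without replicate 2 and 398 without replicate 3. Fewer vehicle libraries make the separation easier to meet, so a rise is built into the rule. All 270 members still passed in each case, but leaving out libraries cannot undo a separation, so this is no separate support. Leaving out 1 treated library gave 266 to 335. A total of 210 members, 73 of the 78 and 137 of the 192, passed under library totals, TMM and DESeq2 scaling at once, an alternative added after the data were seen. The 4 named IDs were among the genes that passed under each of these scalings. For ENSRNOG00000060047.1, with almost no counts in vehicle, scaling could hardly change this, and it was lost once counts were rounded. The 4 IDs also passed without the 3 ethanol libraries, as did 269 of the 270 members. Only the level filter or the removal of ethanol-separating genes can drop a member there, so that is no separate support.

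**Figure D3:**
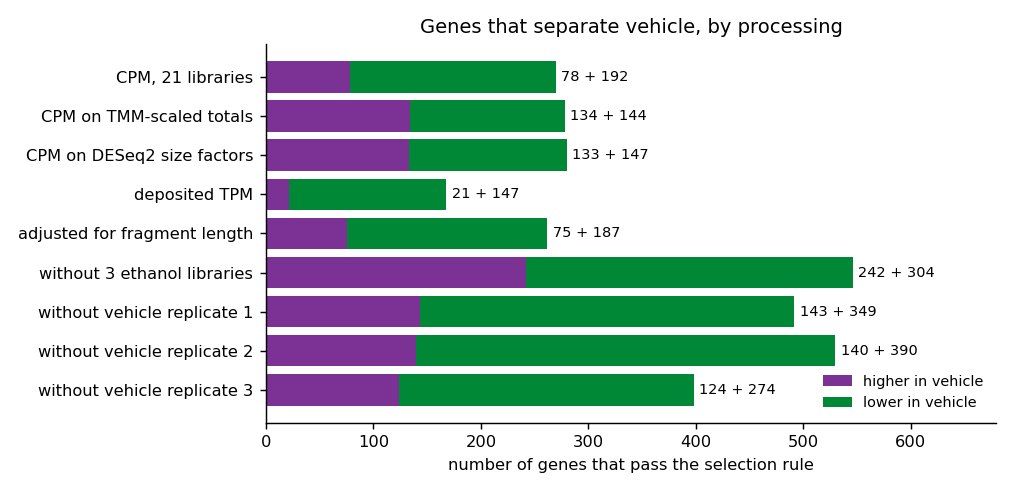
Number of genes that pass the selection rule (horizontal axis) under each scaling and with libraries left out, split into genes higher and lower in vehicle and labelled with both numbers. TPM gives the fewest, 21 and 147, and leaving out the 3 ethanol libraries or a vehicle library gives up to 546.

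Each library was also summarised by its median distance from vehicle, which is the median over members of log2(CPM + 0.5) less the vehicle mean. In the higher set the distance averaged -0.24 ± 0.046 over the 9 water libraries and -0.37 ± 0.081 over the 9 ethanol libraries (SD). In the lower set it averaged 0.26 ± 0.048 and 0.42 ± 0.106. Without the 3 ethanol libraries that stood apart, the ethanol values were -0.36 ± 0.049 and 0.36 ± 0.068 (n = 6). The median distance over all genes was 0.016 for water and 0.032 for ethanol.

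With all 21 libraries, the distances did not rise in the order of dose. For the water extract the lower set stood at 0.30 ± 0.035 (4 µg/mL), 0.20 ± 0.011 (20 µg/mL) and 0.27 ± 0.018 (100 µg/mL), with n = 3 each. The higher set stood at -0.26 ± 0.050, -0.19 ± 0.019 and -0.27 ± 0.020. The medium dose was the nearest to vehicle in both sets, and its 3 libraries did not overlap the low and high dose libraries. For the ethanol extract the lower set stood at 0.42 ± 0.178, 0.45 ± 0.069 and 0.39 ± 0.078, and the higher set at -0.38 ± 0.119, -0.37 ± 0.097 and -0.37 ± 0.053, from low to high dose. Those 3 doses overlapped. Without the 3 ethanol libraries that stood apart, replicate 1 alone stood for the medium dose. From low to high dose, the lower set's median edgeR log2 changes from vehicle were then 0.33, 0.39 and 0.41. With 21 libraries they were 0.40, 0.43 and 0.41. The higher set had -0.33, -0.40 and -0.38 with 18 libraries. So with 18 libraries the lower set rose in the order of dose and the higher set did not.

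**Figure D4:**
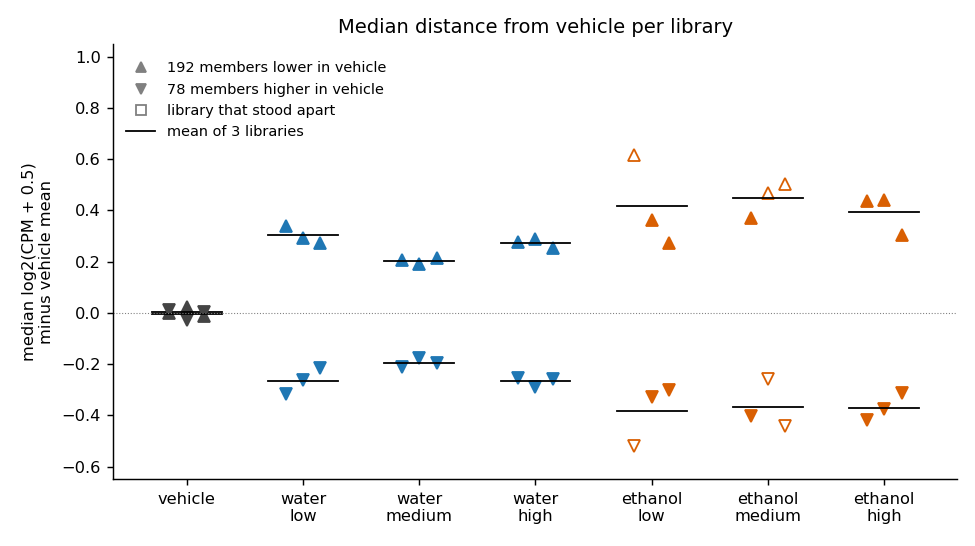
Median log2(CPM + 0.5) of each library less the vehicle mean, over the 192 members lower in vehicle (upward triangles) and the 78 higher in vehicle (downward triangles), with the mean of 3 libraries as a line and open symbols for the libraries that stood apart. Water medium dose lies nearest to vehicle, at 0.20 and -0.19, and ethanol low dose replicate 1 lies furthest, at 0.62 and -0.52.

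Gene by gene, the water medium dose had the group mean nearest to vehicle in 164 of the 270 members (60.7%), against 30.9% of all genes. The ethanol medium dose was furthest in 111 members (41.1%), a smaller share than the 47.9% of all genes. The ethanol low dose was furthest in 77 members (28.5%), against 17.5% of all genes, and the high dose in 65 (24.1%), against 16.9%. The low, high and medium water doses were furthest in 9, 8 and 0 members. Ethanol medium dose replicates 2 and 3 and low dose replicate 1 stood apart, and these shares were not computed without them. The treated library that came nearest to the vehicle libraries, and so set the boundary, was a water library in 194 members and an ethanol library in 76. In 103 members it was a medium dose water library.

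Members of a set tended to move together among treated libraries, which the rule did not require. Over the 18 treated libraries, pairs of genes within the higher set had a median Pearson r of 0.344 and pairs within the lower set 0.423. Pairs that joined the 2 sets had a median of -0.344. Pairs of all 12266 genes had a median of 0.0229, with quartiles of -0.305 and 0.348. Those pairs mix genes of both directions, whereas the sets were sorted by direction, so their median is no like background. Without the 3 ethanol libraries (15 treated libraries) the medians were 0.39, 0.338, -0.345 and 0.0145. These are descriptions, since the genes share libraries, depth, fragment length and the difference between extracts described below.

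The extracts were compared with each other, averaged over doses, by edgeR's quasi-likelihood test on all genes, which asks whether the members' levels differed between solvents. The rule had kept genes with both extracts beyond vehicle and dropped genes that separate ethanol, so it is not wholly independent of this contrast. Of 13550 genes tested, 1257 passed at an adjusted p under 0.05 (9.28%), with 5.01% higher and 4.27% lower in ethanol. Of the 270 members, 71 passed (26.3%). In the set higher in vehicle, 23 of 78 were lower with ethanol than with water extract and 0 were higher, with log2 changes of -0.60 to -0.12. In the set lower in vehicle, 46 of 192 were higher with ethanol and 2 were lower. So 69 of the 71 lay further from vehicle with ethanol, and 2 lay nearer.

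The median log2 change from water to ethanol was -0.15 in the set higher in vehicle, 0.15 in the set lower in vehicle and -0.0012 over all genes tested. By sign alone, 76 of 78 and 181 of 192 lay further from vehicle with ethanol. The same count over all genes was not made, nor was the direction of the called members set against that of all called genes. For most genes, though, an ethanol dose was the group furthest from vehicle: low in 17.5%, medium in 47.9% and high in 16.9%. Among the members the ethanol low, medium and high doses were furthest in 28.5%, 41.1% and 24.1%. That measure ignores direction and includes the 3 ethanol libraries that stood apart, so it is no like background for the signs. Whether lying further out with ethanol is particular to the members was not tested. Without the 3 ethanol libraries, 101 members passed (37.4%), against 20.9% of all genes (8.95% higher and 11.9% lower in ethanol), and 99 of the 101 lay further from vehicle. The medians were then -0.12 and 0.11. In this fit replicate 1 alone stood for the ethanol medium dose, with the same weight as the low and high doses.

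Fragment length was shorter on average in ethanol than in water libraries, so the comparison was also fitted with it. With fragment length as a covariate and 21 libraries, 1 member (0.37%) and 40 of all genes (0.295%) passed. The median changes in that fit were -0.097 and 0.10, and 219 of 270 members lay further from vehicle with ethanol by sign. With the covariate and 18 libraries, 65 members (24.1%) and 13.4% of all genes passed. The count of 71 also moved with single libraries. It was 131 (48.5%) without ethanol medium dose replicate 1, when 36% of all genes passed. It was 42 to 47 (15.6% to 17.4%, against 4.15% to 5.39% of all genes) without water high dose replicate 1 or 2, any water medium dose replicate, water low dose replicate 2 or 3, or ethanol high dose replicate 1 or 2.

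**Figure D5:**
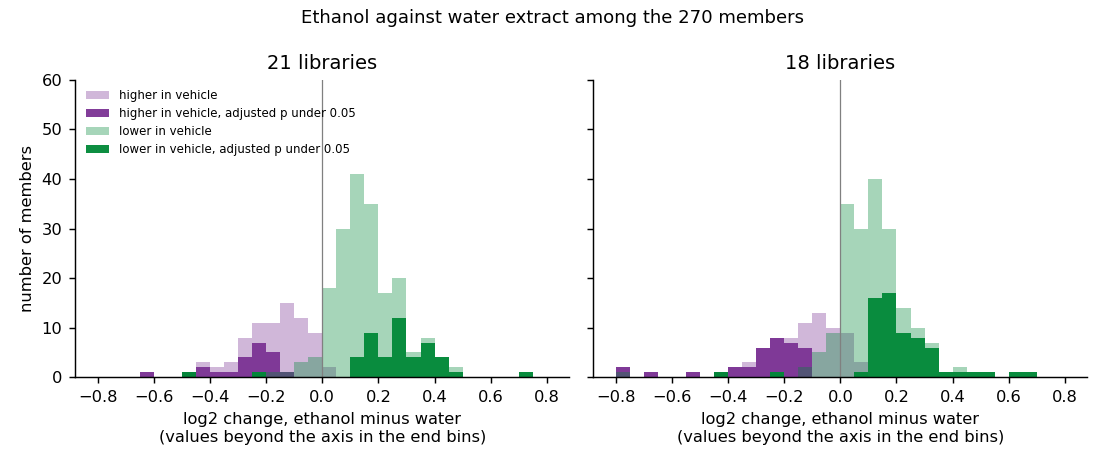
Number of members (vertical axis) by log2 change from water to ethanol extract averaged over doses, with all 21 libraries and with the 18 left after removing those that stood apart; dark bars are genes with an edgeR adjusted p under 0.05. Genes higher in vehicle lie mostly below 0 (median -0.15 with 21 libraries) and genes lower in vehicle mostly above 0 (median 0.15).

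ENSRNOG00000004221.5 was lower with ethanol than with water extract, at a log2 difference of -0.45 ± 0.109 (SE) and an edgeR adjusted p of 0.0181. With 18 libraries the change was -0.41 (edgeR adjusted p = 0.00715), and with fragment length as a covariate it was -0.32 (edgeR adjusted p = 0.342). ENSRNOG00000062002.1 changed by -0.37 ± 0.133, which missed the threshold (edgeR adjusted p = 0.0817). With 18 libraries the change was -0.51, where replicate 1 alone, at 4.60 CPM, stood for the ethanol medium dose. Its changes from vehicle were then -0.56, -1.62 and -0.90 from low to high ethanol dose. With 21 libraries this ID passed with the replicate number as a block, at -0.39 (edgeR adjusted p = 0.0368), and by DESeq2 (adjusted p = 0.044). Adding fragment length to the fit of 21 libraries left it short of the threshold (edgeR adjusted p = 0.404). ENSRNOG00000022603.4 had a difference of 0.15 ± 0.144 (edgeR adjusted p = 0.568). The most abundant member higher in vehicle fell by 0.23 ± 0.0485 on the log2 scale (edgeR adjusted p = 0.0109). The most abundant member lower in vehicle had a change of 0.25 (edgeR adjusted p = 0.0123). The sixth-ranked member of the lower set had the largest change called in the members, 0.71 ± 0.115 (edgeR adjusted p = 0.00239).

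Dose was tested as high against low, averaged over both extracts. None of the members passed, 0 of 270, against 6 of 13550 genes (0.0443%), and 39 members and 712 genes had an unadjusted edgeR p under 0.05. DESeq2 called 6 of 269 members (2.23%) against 49 of 19866 genes (0.247%), and 5 of the 6 lay further from vehicle at the high dose. Without the 3 ethanol libraries 19 members passed (7.04%) against 1.66% of all genes, and 17 of the 19 lay further from vehicle at the high dose. Single libraries moved this count too. It was 6 (2.22%, against 0.394% of all genes) without ethanol medium dose replicate 1. Without ethanol medium dose replicate 2 or 3 it was 2 (0.741%), against 0.139% or 0.176% of all genes. Without ethanol low dose replicate 1 it was 1 (0.37%), against 0.0732%. The difference of the dose effect between extracts passed in 0 members and 0 genes (0%) by edgeR, with 13 members and 425 genes at an unadjusted p under 0.05, and DESeq2 called 4 genes and 0 members. With 18 libraries it passed in 0 members and 1 gene (0.00727%).

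The low and medium doses of the water extract were compared after the group distances had been seen. All groups shared a common estimate of spread in the fit, so libraries outside this contrast also bear on its p-values. The median log2 changes from medium to low dose, -0.11 in the higher set and 0.10 in the lower set, restate those distances on the same libraries and are no separate support. The calls below come from the same libraries, so their share and direction are no separate support either. With 21 libraries 0 members and 0 genes (0%) passed by edgeR, 30 members and 497 genes had an unadjusted p under 0.05, and DESeq2 called 1 member among 15 genes. Without the 3 ethanol libraries, which belong to neither group of this contrast, 13759 genes were tested in place of 13550 and 11 members passed (4.07%) against 0.829% of all genes, and 10 of them lay further from vehicle at the low dose.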

How the data were processed

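Messenger RNA libraries of 21 PC12 samples were analysed, grouped by the treatment labels. The deposited tables hold expected counts per gene, which need not be whole, and TPM, per the file headers. The authors used RSEM 1.3.3 per the submitters' processing notes and a directional kit per the labels' protocols. Not given in the sources used here are the aligner, the build, the annotation and whether counting used strand.

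The members, the gene lists and the tests were chosen with earlier results of these data known. CPM was computed from the deposited expected counts and the file totals. Expected counts were rounded for edgeR 4.0.16 in R 4.3.3, with TMM scaling, its default filter on low counts, a robust quasi-likelihood fit with 1 coefficient per group over 21 libraries, and Benjamini-Hochberg adjustment over all genes tested. Fragment length was estimated as gene length minus effective length, with the median taken across genes of 1000 bases or more. Alternatives were DESeq2 1.42.0, other scalings and filters, a replicate block, treated libraries only, a fragment length covariate, and leaving out libraries. The rounding, whole-count and joint-scaling variants of the rule, and the water low against medium comparison, were added after the data were seen. On simulated data for ethanol against water (13469 genes), 62, 86, 100 and 94% of genes changed 1.25, 1.5, 2 and 4-fold were recovered, with 4 false among 175 calls. The simulation kept each library's depth but had no fragment length effect or other differences between single libraries. Its false calls therefore do not give the rate in the real contrast.

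Named IDs were to be members with a symbol. As no ID matched one, the 2 per direction with the largest ratio of vehicle to treated mean CPM were named. The 28 gene lists, the marker lists and the promoter motifs were not applied.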

Additional observations from a re-analysis of the deposited data

How the results depend on the processing

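The 270 members became 168 with TPM, 546 without the 3 ethanol libraries and 266 to 530 when 1 library was left out. With libraries left out, the separation is easier to meet. Other filters, scalings and the fragment length adjustment gave 210 to 282, but TMM and fragment adjustment shared 214 and 180 genes with the 270. The 71 members called between extracts became 50 with treated libraries only (18.5%, against 5.42% of all genes). They became 1 with the fragment length covariate and 42 to 131 when 1 library was left out. Over all genes that count of 1257 was 1936 by DESeq2, 733 with treated libraries only, 2869 with 18 libraries, 40 with the covariate and 568 to 4929 with 1 library left out. For high against low dose, 0 members became 6 by DESeq2, 19 with 18 libraries, 1 with the covariate, 18 with both, and 0 to 6 with 1 library left out. The 6 genes called there became 49, 228, 16 and 189 in those fits, and 2 to 54. For the difference between extracts, 0 genes became 4 by DESeq2 and 1 with 18 libraries, with and without the covariate. For low against medium water extract, 0 members became 1 by DESeq2, 11 with 18 libraries and 4 with 18 libraries and the covariate, where 0 genes became 15, 114 and 80. The causes were not tested.

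The labels tie replicate numbers to no shared culture or day, and the numbers were not treated as pairs, since the correlation of deviations passed 0.1 in 13 of 63 same-numbered pairs (-0.192 to 0.339, median 0.0036, against -0.0096 for other pairs). As a hint from the data, 11 of 21 libraries correlated best with their own number. With a replicate block, 549 genes met the rule, since each vehicle library was then set against 6 treated libraries. Between extracts 70 members passed (25.9%), against 8.57% of all genes, and ENSRNOG00000062002.1 then passed. The block called 0 members for the other contrasts.

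Depth limits the values of ENSRNOG00000022603.4, which rest on 7 to 12 counts in vehicle.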
